A study of Mus musculus with 6 samples.

Results

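The proteins that carry fatty acids into and through a cell were examined as a group of 10 genes. They were 3 fatty acid-binding proteins (Fabp3, Fabp4 and Fabp5), 4 fatty acid transport proteins (Slc27a1, Slc27a2, Slc27a3 and Slc27a4), 2 acyl-CoA-binding proteins (Dbi and Acbd3) and the sterol carrier gene Scp2. The genes were taken by symbol, with earlier results of these data known, and are 10 of the 30037 named genes of the expression table. Poly(A) RNA had been sequenced from L-GMP cells, a sorted population of leukaemia cells from bone marrow, taken at 8 to 10 weeks of age from mice carrying acute myeloid leukaemia (AML). The 3 WT libraries came from AML in wild-type mice and the 3 Prmt6-/- libraries from AML in mice without Prmt6, a protein arginine methyltransferase. The gene that drives the leukaemia, which all libraries share, and whether the libraries of a genotype came from separate animals are not given in the sources used here, so each p-value reflects the spread among these libraries and that spread may be technical.

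Long-chain fatty acids are poorly soluble and are handled by proteins at each step. SLC27 proteins are membrane proteins that promote uptake and join fatty acids to coenzyme A. FABPs are small cytosolic carriers that bind the free fatty acid in a barrel-shaped pocket and hand it to membranes, enzymes or nuclear receptors. Acyl-CoA-binding proteins hold the activated form, and sterol carrier protein 2 moves sterols and other lipids and has a longer form that acts as a thiolase in peroxisomes. In myeloid cells, FABP4 and FABP5 are best known from macrophages.

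Values are the authors' normalized log2 expression values, in which 1 unit is nominally a doubling, and differences are Prmt6-/- minus WT. A gene is said to rise or fall where limma, a linear model fitted to all 15454 genes whose value reached 1 in 3 or more libraries, gave a Benjamini-Hochberg adjusted p under 0.05. Of the 10 genes 9 were tested, and Slc27a2 was too low. Read depth is unknown, since the values are not counts. The scale pulls values together, above all for genes of low level, so that differences are understated. On it Prmt6 and Fabp5 differed by -2.16 and -0.50, against authors' deposited log2 fold changes of -7.66 and -0.80. The targeted gene Prmt6 stood at 7.82, 7.60 and 7.41 in the WT libraries and at 5.42, 5.46 and 5.48 in the Prmt6-/- libraries, lower in every library labelled Prmt6-/-. Of the genes commonly used to sort granulocyte-macrophage progenitors, Kit, Cd34, Fcgr2b and Fcgr3 had WT means of 10.1, 10.4, 12.4 and 13.3. Ly6a, which such sorts exclude, had 2.62. Among them Fcgr2b fell in Prmt6-/- cells, to 11.5. Kit differed by -0.29 and did not pass (limma adjusted p = 0.0961), though its adjusted p in the authors' deposited table is 0.0481. Correlations across tested genes were 0.9987 to 0.9992 between libraries of a genotype and 0.9933 to 0.9961 between genotypes.

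In Prmt6-/- cells 3 carriers fell, namely Fabp5, Acbd3 and Dbi. None of the 10 genes rose under limma, 1 was higher at an unadjusted p under 0.05 (Fabp4), and the authors' deposited table calls the same 3 lower and 0 higher. The count of 3 lower among 9 tested stands beside 18.0% lower and 15.0% higher among all tested genes, or 33.0% in either direction. Among genes with a mean value of at least 5, 3 of these 6 genes passed, against 42.9% of 10725. The share of genes that passed is therefore near that of the whole table, and the results concern the single genes. The WT and Prmt6-/- values did not overlap for 5 of the 9 tested genes, against 47.4% of all tested genes. These were Fabp5, Acbd3, Dbi, Fabp4 and Slc27a1. The separation of Slc27a1 is without weight, since its lowest WT value was 1.89112 and its highest Prmt6-/- value 1.89107. The median difference over the 9 was -0.09, and over all tested genes 0.0056.

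**Figure D1:**
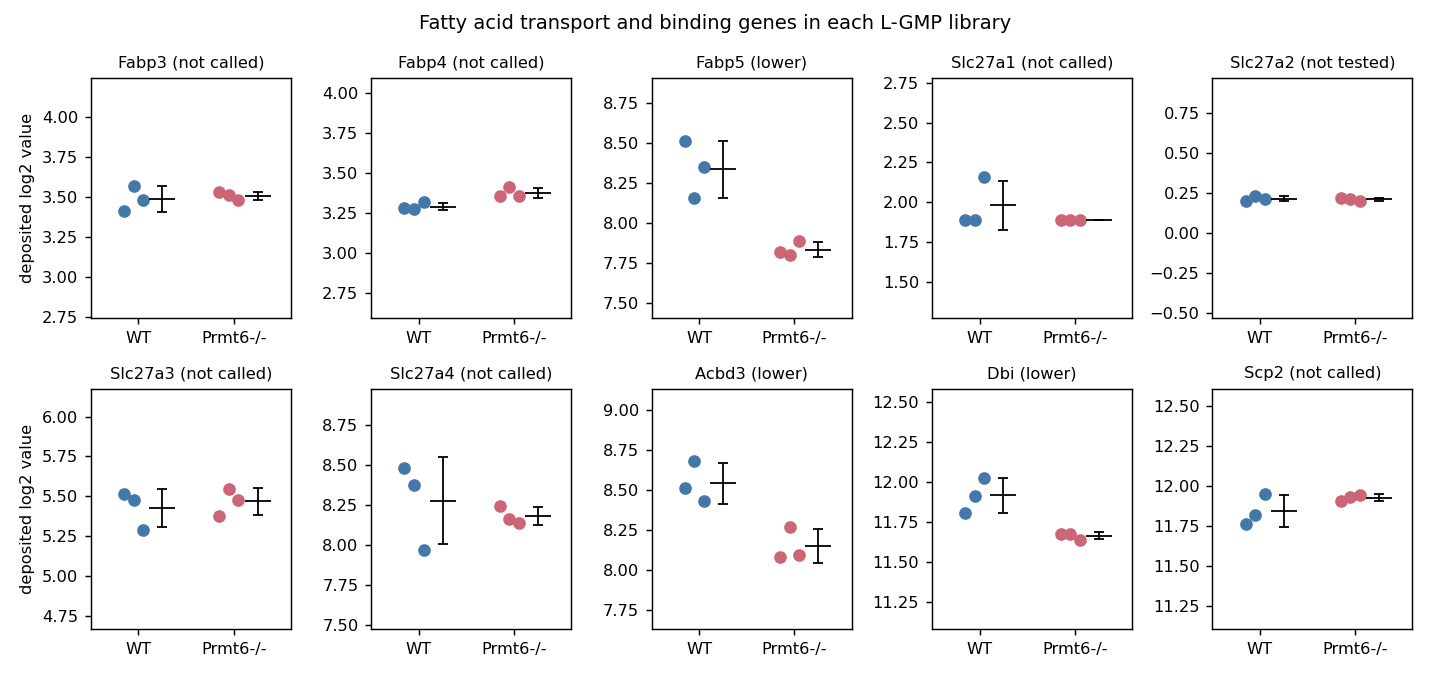
Deposited log2 values (vertical axis, each panel spanning 1.5 units) of the 10 genes in the 3 WT libraries (blue) and the 3 Prmt6-/- libraries (red), with the mean and SD in black. All red points lie below all blue points for Fabp5, Acbd3 and Dbi, while the colours overlap for Scp2, Slc27a3 and Slc27a4.

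Fabp5, the epidermal-type fatty acid-binding protein (chromosome 3, 10012548 to 10016607, plus strand, GRCm38, 4 exons, 135 codons), was the only FABP above a low level. Its WT values were 8.51, 8.16 and 8.35 and its Prmt6-/- values 7.82, 7.80 and 7.89. Every Prmt6-/- library lay below every WT library, and the WT libraries were the more spread. The WT mean was 8.34 ± 0.18 (SD, n = 3) and the Prmt6-/- mean 7.84 ± 0.05, which makes the difference -0.50 (SE 0.091, 95% interval -0.71 to -0.30, limma adjusted p = 0.00289). Taken back from log2, this difference of mean log2 values is a change of -29.49%. It is not a change of linear means, and the deposited scale understates it. An exact two-sided permutation test returned p = 0.1, which is the minimum for 3 libraries a group. The authors' deposited table lists a log2 fold change of -0.80 for Fabp5. These are bulk samples, in which fewer cells of a type and less RNA per cell cannot be told apart.

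Fabp5 has near-copies in the genome. Of GENCODE transcripts of other genes, 5 processed pseudogenes matched its transcript at 93.6% to 98.3% identity over at least 200 bases. All 5 have a row in the table, so reads could be assigned to either. Of these, 4 were listed at 0 in every library and Gm13998 stood at -1.01 in WT and -1.02 in Prmt6-/- cells. The closest copy, Gm6166 on chromosome 9, is shown with Fabp5 over the 60 coding bases 334 to 393. Bases are counted from the first base of the Fabp5 start codon, and both are shown as transcribed. No other gap-free coding stretch of this length held more differences between them. Capitals mark the 2 differing bases:
Fabp5: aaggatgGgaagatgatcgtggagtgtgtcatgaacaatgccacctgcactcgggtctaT
Gm6166: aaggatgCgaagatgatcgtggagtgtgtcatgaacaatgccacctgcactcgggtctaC
Reads that lie wholly between the 2 differing bases would fit both genes, while longer reads would cover a difference. Gm6166 was listed at 0 in every library.

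Markers of other blood cells also differed between the genotypes. Of 5 monocyte markers Csf1r and Cd68 fell, by 1.83 and 0.94, and Ccr2 rose by 1.07. The summed linear level of the list was 25756 to 28941 in WT and 24845 to 26398 in Prmt6-/- libraries. Most of that sum was Ly6c2, at 14.46 in WT and 14.48 in Prmt6-/- cells, which did not pass. Of 6 macrophage markers in the table Vcam1 fell, from 12.03 to 9.86, and the summed level was 3595 to 5002 against 734 to 1102, nearly all of it Vcam1. The complement genes C1qa, C1qb and C1qc, which mark resident macrophages, stood at 1.09, 2.77 and 2.82 in WT, and Cd5l at -1.49. Of 3 tested B cell markers Cd79b fell by 1.15, and the summed level of the list was 744 to 821 in WT and 318 to 414 in Prmt6-/- libraries. Of 5 tested T and NK cell markers Nkg7 fell by 1.36, with sums of 1438 to 2704 and 519 to 1450. The Nkg7 groups overlapped, and its adjusted p in the authors' deposited table is 0.0941. Of 6 neutrophil markers Camp rose by 0.97 and Mmp8 fell by 0.53, with sums of 962 to 1130 and 864 to 1822. For Mmp8 the authors' deposited table gives 0.204 as adjusted p. Of 5 tested erythroid markers Klf1 rose by 0.22, with sums of 50.02 to 50.76 and 51.4 to 55.1. The part of any of these cells in the falls of Fabp5, Acbd3 and Dbi was not tested.

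Fabp4, the adipocyte-type FABP (chromosome 3, 10204088 to 10208576, minus strand), was low in all libraries. It stood at 3.28, 3.27 and 3.32 in WT and at 3.36, 3.41 and 3.36 in Prmt6-/- libraries. The groups did not overlap, yet the difference of 0.09 (95% interval 0.016 to 0.155) missed the threshold after adjustment (limma adjusted p = 0.0610, exact permutation p = 0.1). For Fabp4 the authors' deposited table gives 1.33 as log2 fold change and 0.171 as adjusted p. Adipocytes and endothelial cells express Fabp4 strongly. Of 6 adipocyte markers 2 were tested and of 6 endothelial markers 3, and 0 of either list passed under limma, at an unadjusted p under 0.05 or in the authors' deposited table. Plin1 and Cfd were listed at 0 in every library and Adipoq stood at -1.97, near the lowest value of the table. The summed linear level of the adipocyte list, most of it Retn, was 21.1 to 21.8 in WT and 22.1 to 22.8 in Prmt6-/- libraries, and that of the endothelial list 17.0 to 17.3 and 16.9 to 17.5.

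Fabp3, the heart-type FABP (chromosome 4, 130308595 to 130315463), was as low and its groups overlapped. Its values were 3.41, 3.57 and 3.48 in WT and 3.53, 3.51 and 3.48 in Prmt6-/- libraries. The difference was 0.02 (95% interval -0.078 to 0.117, limma adjusted p = 0.765), and it stood at -0.02 without WT library 1 and at -0.0037 after quantile normalization. A processed pseudogene, Fabp3-ps1, matches 402 bases of its transcript at 99.3% identity and stood at 1.99 and 2.03. The coding sequences of Fabp4 and Fabp5 were identical at 61.6% of aligned positions, with a longest shared run of 12 bases. Those of Fabp3 and Fabp4 were identical at 65.7% with a run of 14, and those of Fabp3 and Fabp5 at 57.6% with a run of 10.

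Several FABP genes lie together on chromosome 3. Within 500 kb of the Fabp5 to Fabp4 interval, 13 genes had a row and 9 were tested; 1 fell (Fabp5) and 1 rose (Snx16, a sorting nexin, by 0.45, from 7.73 ± 0.08 to 8.18 ± 0.12, limma adjusted p = 0.00277). The other FABP genes of the cluster, Pmp2, Fabp9 and Fabp12, had WT means of -1.97, -1.97 and 1.75. Pag1, the nearest upstream gene in the table, was 7.07 ± 0.06 and 7.09 ± 0.04, and Impa1, an inositol monophosphatase downstream, was 11.41 ± 0.07 and 11.41 ± 0.08. Fabp5 and Fabp4 lie 100.23 and 100.04 Mb from Prmt6 on the same chromosome.

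**Figure D2:**
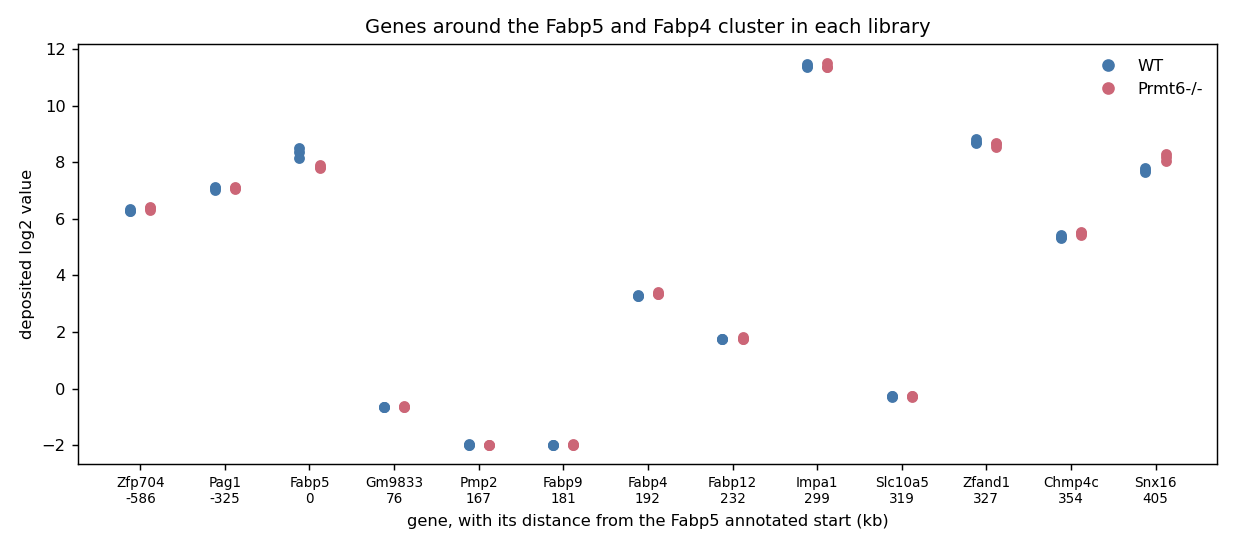
Deposited log2 values (vertical axis) of the 13 genes around the Fabp5 and Fabp4 cluster, in genomic order with the distance of each annotated start from that of Fabp5 in kb, for 3 WT (blue) and 3 Prmt6-/- libraries (red). Fabp5 lies lower and Snx16 higher in the Prmt6-/- libraries, and Pmp2 and Fabp9 lie near the bottom of the scale in all 6.

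Of the fatty acid transport proteins, Slc27a4 (FATP4, chromosome 2, 29802634 to 29817522) had the highest level. Its values were 8.48, 8.38 and 7.97 in WT and 8.24, 8.17 and 8.14 in Prmt6-/- libraries. The third WT library lay below all others and the first and second above all others, so the groups overlapped. The difference was -0.09 (95% interval -0.37 to 0.18, limma adjusted p = 0.597). This rested on single WT libraries: without WT library 3 it was -0.25 and passed (adjusted p = 0.0359), and without WT library 1 it was 0.0099 (adjusted p = 0.962). For Slc27a4 the authors' deposited table gives -0.17 as log2 fold change and 0.575 as adjusted p.

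Slc27a3 (FATP3, chromosome 3, 90385239 to 90389938), an acyl-CoA synthetase of the same family, lies 19.9 Mb from Prmt6. It stood at 5.51, 5.48 and 5.29 in WT and at 5.38, 5.55 and 5.48 in Prmt6-/- libraries, and the groups overlapped. The difference of 0.04 (95% interval -0.13 to 0.21, limma adjusted p = 0.714) turned to -0.03 without WT library 3 and to -0.0086 after quantile normalization.

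Slc27a1 (FATP1, chromosome 8, 71568882 to 71587302), the form of muscle and fat, was at a common low value of 1.89 in 5 of the 6 libraries and at 2.16 in WT library 3. The difference was -0.09 (95% interval -0.23 to 0.05, limma adjusted p = 0.307) and -0.00023 without that library. For Slc27a1 the authors' deposited table gives -5.62 as log2 fold change and 0.295 as adjusted p. Slc27a2 (FATP2, chromosome 2, 126552407 to 126588243), the form of liver and kidney, lay between 0.20 and 0.23 in all 6 libraries and was not tested. Among the family's coding sequences Slc27a1 and Slc27a4 were the closest, with 66.4% identity and a longest shared run of 26 bases.

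**Figure D3:**
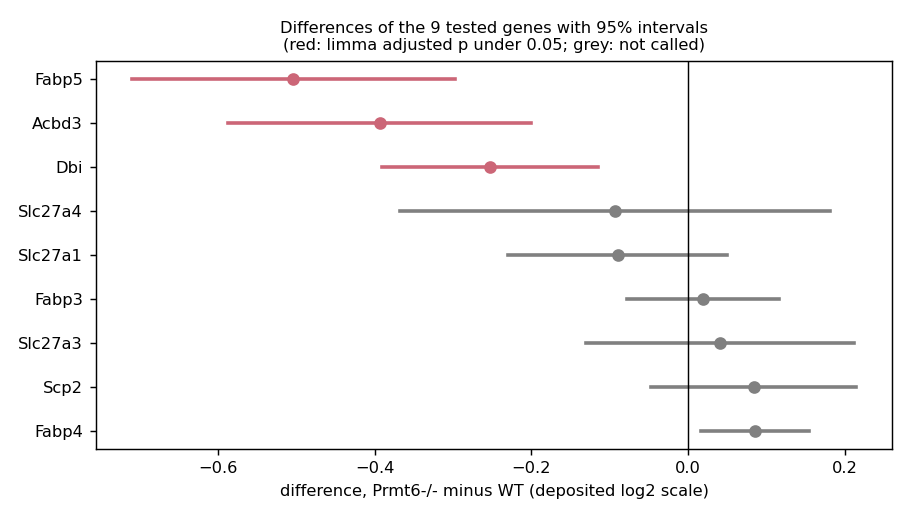
Difference, Prmt6-/- minus WT, on the deposited log2 scale (horizontal axis) with limma's 95% interval for the 9 tested genes. The intervals of Fabp5, Acbd3 and Dbi (red) lie wholly below 0 and that of Fabp4 wholly above 0, though Fabp4 did not pass after adjustment (grey).

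Dbi encodes the acyl-CoA-binding protein, also called diazepam binding inhibitor (chromosome 1, 120113280 to 120121078, minus strand, 87 codons). It stood at 11.81, 11.92 and 12.03 in WT and at 11.68, 11.67 and 11.64 in Prmt6-/- libraries, with no overlap and a narrow spread in the Prmt6-/- group. The WT mean was 11.92 ± 0.11 (SD, n = 3) and the Prmt6-/- mean 11.66 ± 0.02, which makes the difference -0.25 (SE 0.061, 95% interval -0.39 to -0.12, limma adjusted p = 0.0117, exact permutation p = 0.1). Taken back from log2, this difference of mean log2 values is a change of -16.09%, with the same limits as for Fabp5. After quantile normalization the difference was -0.16 and no longer passed (adjusted p = 0.0580), whereas after intensity-dependent centring it was -0.20 and passed (adjusted p = 0.0242). Over the other alternatives the adjusted p of Dbi lay between 0.00118 and 0.0395. One processed pseudogene, Gm12222, matches 261 bases of the Dbi transcript at 93.9% identity and was listed at 0 in every library.

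Acbd3, a Golgi protein with an acyl-CoA-binding domain that recruits the lipid kinase PI4KB (chromosome 1, 180726043 to 180754204, plus strand, 525 codons), fell as well. Its values were 8.51, 8.68 and 8.43 in WT and 8.08, 8.27 and 8.09 in Prmt6-/- libraries, without overlap. The WT mean was 8.54 ± 0.13 (SD, n = 3) and the Prmt6-/- mean 8.15 ± 0.11, which makes the difference -0.39 (SE 0.086, 95% interval -0.59 to -0.20, limma adjusted p = 0.00721, exact permutation p = 0.1). The authors' deposited table lists log2 fold changes of -0.59 for Acbd3 and -0.29 for Dbi.

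Scp2 (chromosome 4, 108043839 to 108144998, minus strand) was at about the deposited level of Dbi and did not pass the test. It stood at 11.76, 11.82 and 11.95 in WT and at 11.90, 11.93 and 11.94 in Prmt6-/- libraries, which lay within the upper part of the WT range. The difference was 0.08 (95% interval -0.05 to 0.21, limma adjusted p = 0.307). After quantile normalization it was 0.18 and passed as higher (adjusted p = 0.0233), whereas the adjusted p of Scp2 was at least 0.067 under the other alternatives. Scp2-ps2, an unprocessed pseudogene that matches 1371 bases of the Scp2 transcript at 99.6% identity, was listed at 0 in every library.

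A comparison within each library does not depend on a shift of a whole library. The level of Dbi relative to Scp2 was 0.05, 0.10 and 0.08 in WT libraries and -0.23, -0.25 and -0.30 in Prmt6-/- libraries. These values are not corrected for transcript length, so the sign of the difference does not rank Dbi against Scp2. The groups did not overlap, and the change in this difference was -0.34 (exact two-sided permutation p = 0.1, the smallest possible, and adjusted p = 0.15 over the 6 pairs compared). Fabp5 relative to Scp2 changed by -0.59 and Acbd3 relative to Scp2 by -0.48, both without overlap (exact permutation p = 0.1 each). Against Slc27a4, Fabp5 changed by -0.41 without overlap, Acbd3 by -0.30 and Dbi by -0.16, the last 2 with overlap (exact permutation p = 0.1, 0.2 and 0.7). Dbi relative to Slc27a4 changed by 0.05 without WT library 3. These pairs were chosen after the values were seen.

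**Figure D4:**
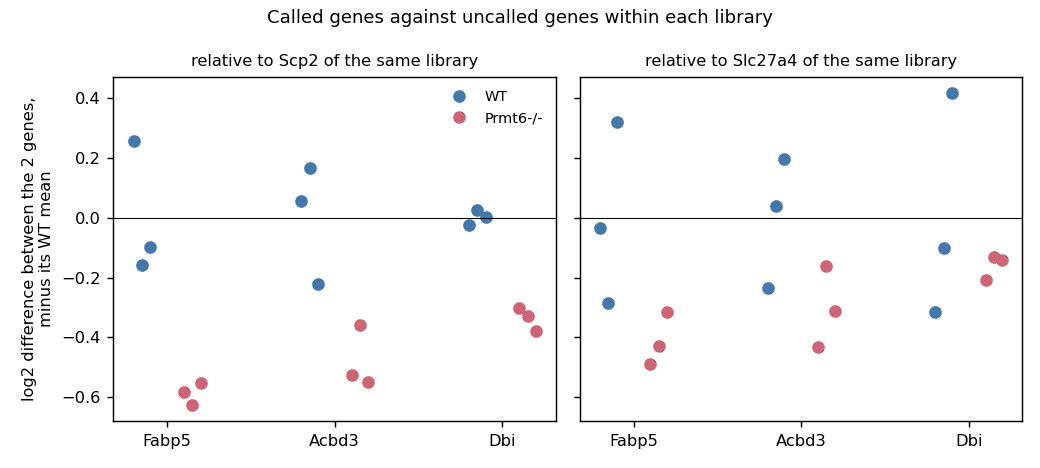
Deposited log2 level of Fabp5, Acbd3 and Dbi minus that of Scp2 (left) or Slc27a4 (right) in the same library, with the WT mean of that difference set to 0 (vertical axis). Against Scp2 the Prmt6-/- libraries (red) lie below every WT library (blue) for all 3 genes, and against Slc27a4 the colours overlap for Acbd3 and Dbi.

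Per kilobase of the main coding transcript, the order of the 6 genes whose mean reached 5 was the same in both genotypes. On this log2 scale the WT levels were 12.7 for Dbi, 10.4 for Scp2, 8.36 for Fabp5, 6.75 for Acbd3, 6.26 for Slc27a4 and 4.25 for Slc27a3, and the Prmt6-/- levels 12.5, 10.5, 7.85, 6.35, 6.16 and 4.29. The closest neighbours were Acbd3 and Slc27a4: in WT their libraries ranged from 6.63 to 6.89 and from 5.95 to 6.46, and in Prmt6-/- cells from 6.28 to 6.47 and from 6.12 to 6.23, without overlap. The gap between Dbi and Scp2 depended on the transcript taken: with the shortest coding transcript of each, of 491 and 527 bases, their WT levels were 12.94 and 12.77. All these levels start from the deposited scale, which pulls values together, and on which Prmt6 still stood at 5.45 in Prmt6-/- cells. The gaps, above all at the lower levels, are therefore not ratios of abundance.

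Other genes that handle fatty acids moved in both directions in Prmt6-/- cells. Over 10 related lists 78 of 95 genes were tested; 18 rose and 21 fell, 39 in all, and the median difference was 0.02. Among those with a mean of at least 5, 17 rose and 19 fell of 62 (58.1%), against 42.9% of all genes at that level.

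The list of uptake and receptor genes of the cell surface held the largest rise, that of a receptor. Of its 9 tested genes 2 rose and 3 fell. Ffar4, a receptor for long-chain fatty acids, stood at 6.95, 6.90 and 6.80 in WT and at 8.50, 8.29 and 8.20 in Prmt6-/- libraries, a difference of 1.45 (SE 0.088, limma adjusted p = 1.57e-05). Lipoprotein lipase (Lpl), which frees fatty acids from lipoproteins, fell by 0.68, from 6.86 ± 0.22 to 6.18 ± 0.22. The scavenger receptor Cd36, a major fatty acid receptor of macrophages and fat, stood between -1.49 and -1.48 in every library and was not tested. Slc27a6, a further member of the transport family, was at 1.76 in WT and 1.84 in Prmt6-/- cells and rose by 0.07 (limma adjusted p = 0.0214). That call ended without WT library 1, 2 or 3 or Prmt6-/- library 1 or 2 (adjusted p = 0.0502 to 0.0723) and in limma without trend (0.140), and the authors' deposited table lists a log2 fold change of 5.25 for Slc27a6. Of the other FABPs and retinoid-binding proteins only 2 of 12 were high enough to be tested, and 0 passed under limma, 0 at an unadjusted p under 0.05 and 0 in the authors' deposited table; Crabp2, the member with the smallest p, stood at 1.62 and 1.65.

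Of 5 tested acyl-CoA-binding domain proteins 1 fell and 0 rose, also 0 at an unadjusted p under 0.05 and 0 in the authors' deposited table. Acbd6 was that gene, at 9.73 ± 0.02 in WT and 9.54 ± 0.07 in Prmt6-/- cells (difference -0.19, limma adjusted p = 0.0327), and its call ended without any WT library, without Prmt6-/- library 2 or 3 (adjusted p from 0.0655 to 0.1003) and under both rescalings (0.126 and 0.0538) and with no filter on low values (0.0512). Of 3 tested SCP2-domain proteins 2 fell and 0 rose, again 0 at an unadjusted p under 0.05 and 0 in the authors' deposited table. Hsdl2, a peroxisomal dehydrogenase-like protein, fell by 0.55, from 10.77 ± 0.08 to 10.22 ± 0.07 (limma adjusted p = 0.000239). Stoml1 fell by 0.34 (limma adjusted p = 0.0284), a call lost without WT library 1 or 2 or Prmt6-/- library 1 or 2 (adjusted p = 0.0510 to 0.0977) and when the replicate number was a block (0.0534).

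Of 7 tested partners of Dbi and Acbd3 3 rose and 0 fell, with 0 lower at an unadjusted p under 0.05 and 0 lower in the authors' deposited table. Tspo, the outer mitochondrial membrane protein that binds the Dbi product, stood at 13.83, 14.01 and 13.77 in WT and at 14.22, 14.07 and 14.02 in Prmt6-/- libraries, a difference of 0.23 (limma adjusted p = 0.0336). Stard3, a late endosomal sterol transporter, rose by 0.27 and Tbc1d22a, a Golgi protein that binds ACBD3, by 0.21. None of these 3 calls held in every alternative. All 3 were lost without WT library 1 or 3 or Prmt6-/- library 1, and singly without other libraries, with an adjusted p of up to 0.108 for Tspo, 0.0832 for Stard3 and 0.106 for Tbc1d22a. Tspo was also lost in limma without trend (0.0672), and Tbc1d22a has an adjusted p of 0.0567 in the authors' deposited table. Golgb1, the Golgi anchor of ACBD3, and Pi4kb differed by -0.0013 and -0.0027 and did not pass; both were named after their values were seen.

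Genes that act on fatty acids after binding moved up and down in equal or nearly equal numbers. Of 10 tested acyl-CoA synthetases and thioesterases 3 rose and 3 fell. Acsl1, which activates long-chain fatty acids, rose by 0.76, from 10.99 ± 0.07 to 11.75 ± 0.12 (limma adjusted p = 8.33e-05). The thioesterases Acot7 and Acot9, which release the fatty acid from coenzyme A, fell by 0.81 and 0.62. In the carnitine shuttle, which takes acyl groups into mitochondria, 2 of 7 fell and 1 rose. Carnitine acetyltransferase (Crat) fell by 0.70 and Cpt1a by 0.49, while the carnitine importer Slc22a5 rose by 0.32. Of 12 genes of peroxisomal import and thiolysis 3 rose and 3 fell. The phytanic acid hydroxylase Phyh fell by 0.67 and the thiolase Acaa1a by 0.43, and the racemase Amacr rose by 0.60.

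Lipid droplet genes and nuclear receptors were split as well. Of 13 tested droplet and lipolysis genes 4 rose and 4 fell. Pnpla2, the triglyceride lipase ATGL, fell by 0.73, from 11.09 ± 0.09 to 10.36 ± 0.03 (limma adjusted p = 5.04e-05), and monoglyceride lipase (Mgll) rose by 0.83 and Hilpda, an inhibitor of ATGL, by 0.66. G0s2, another inhibitor of ATGL, stood at 8.97, 9.06 and 9.81 in WT and at 7.14, 7.56 and 7.91 in Prmt6-/- libraries and fell by 1.75 (limma adjusted p = 0.000668), the largest change in these lists; it was named after its value was seen. Of 10 nuclear receptor genes 2 rose and 3 fell. Pparg, a receptor to which FABP4 delivers ligands, fell by 0.40, at 4.96, 5.03 and 4.99 in WT against 4.57, 4.59 and 4.62 in Prmt6-/- libraries (limma adjusted p = 0.000288), and the authors' deposited table lists a log2 fold change of -2.69 for it. Ppard, the receptor that FABP5 is known to supply, differed by -0.05 and did not pass; it was named after its value was seen. The coactivator Ppargc1b rose by 0.33 and the partner receptor Rxra by 0.27.

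**Figure D5:**
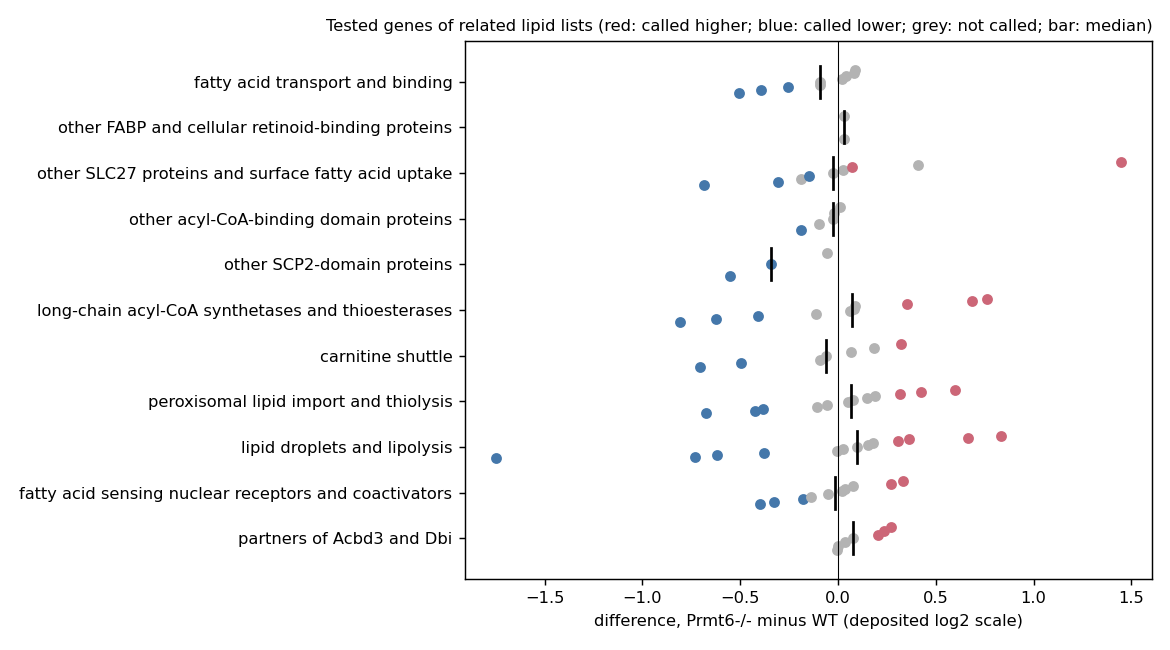
Difference, Prmt6-/- minus WT, on the deposited log2 scale (horizontal axis) for each tested gene of the 9 tested transport and binding genes and of the 10 related lists; red genes rose, blue genes fell, grey genes did not pass, and black bars are medians. Most lists hold genes on both sides of 0, with Ffar4 at 1.45 farthest to the right.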

How the data were processed

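Poly(A) RNA-seq was analysed from L-GMP cells of 3 WT and 3 Prmt6-/- leukaemias. The tools listed, without a version, are kallisto, HOMER and Trim Galore, with GRCm38 as the build, per the submitters' processing notes. HOMER's differential expression command was run on a count table, per the file headers; the transformation behind the deposited log2 values and the test behind the deposited log2 fold changes, p-values and adjusted p-values are not named. The deposited log2 values run from -1.97 to 18.04. The 1 row that names no gene (0.00333% of rows) was left out, and 7932 genes at 0 in every library were not tested.

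The values were compared between genotypes across all genes with limma 3.58.1 in R 4.3.3 (mean-variance trend, two-sided, adjusted p under 0.05), without a replicate block, on genes whose value reached 1 in 3 or more libraries. The procedure was tested on simulated data. Single genes were also tested by exact permutation of the group labels. Lists are given as counts and medians. Named genes were the 10 genes, Prmt6 and the 3 genes with the smallest p among those that passed in each list, or the 1 with the smallest p where none passed; others are marked where named, or are markers and cluster neighbours. The genes and lists were chosen with earlier results of these data known. Alternatives were other filters on low values, quantile normalization, intensity-dependent centring, limma without trend, a replicate block, the authors' deposited statistics and leaving out each library. Annotation and transcripts were GENCODE M21 (GRCm38), in which all 10 genes were matched by symbol. Near-copies were sought with blastn 2.17.0 (identity of at least 90% over at least 200 bases). Promoter sequences are not reported here. Depth is unknown, so no counting interval is given.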

Additional observations from a re-analysis of the deposited data

How the results depend on the processing

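Fabp5 and Acbd3 stayed lower and past the threshold in every alternative run, with differences of -0.60 to -0.42 and -0.46 to -0.32 over the fits that left out a library. Under quantile normalization 1 of the 10 genes, Scp2, was called higher (0.18) against 0 otherwise, and Dbi (-0.16) was no longer called, so that 2 were lower. Over the fits that left out 1 library the count of lower genes was 3 to 4, the fourth being Slc27a4 without WT library 3, and the count of higher genes 0. Directions that turned were all of genes that had not passed: Fabp3 was -0.0037 after quantile normalization and -0.018 without WT library 1, Slc27a3 was -0.0086 after quantile normalization and -0.027 without WT library 3, and Slc27a4 was 0.0099 without WT library 1. Dbi relative to Slc27a4 was 0.049 without WT library 3, an alternative added after seeing the data. Without 1 library the difference ran from -0.018 to 0.061 for Fabp3, from -0.027 to 0.086 for Slc27a3 and from -0.248 to 0.0099 for Slc27a4. The causes were not tested. Alternatives with another pseudocount or a count model were not run, since the values are on a log2 scale and are not counts. All genes called numbered 5102, and 3888 to 4598 without 1 library. The related lists held 14 to 18 higher and 15 to 19 lower genes without 1 library.

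Libraries of the same number were not treated as pairs in the main fit. Correlations of their deviations were low, at 0.095, 0.073 and 0.172, although each library correlated best with its own number. With the number as a replicate block 5074 genes were called, 3 of the 10 genes were lower and 0 higher, and the adjusted p was 0.00371 for Fabp5, 0.00362 for Acbd3 and 0.0166 for Dbi; Stoml1 was the only named gene whose call ended. Depth is unknown, and for genes with a mean near or under 5 the deposited scale leaves little room for a difference. Slc27a3, with a WT mean of 5.43, differed by 0.04 on it, against an authors' deposited log2 fold change of 0.16. A missing call of Fabp3, Fabp4, Slc27a1, Slc27a2 or Slc27a3 therefore does not show equal levels.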
